A study of Bos taurus with 4 samples.

Results

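The promoters described here are open chromatin regions that lay near an annotated gene start, held no CpG island and were listed as peaks in all 4 ATAC-seq libraries of bovine rumen epithelial primary cells (REPC). ATAC-seq uses a transposase that inserts sequencing adapters into open chromatin. Listed peaks that overlapped, by 1 bp or more, were merged. A merged region was a member where every library had a peak in it, none of its peaks carried a CpG island in the deposited annotation, and the summit of at least 1 of its peaks lay within 1000 bp of a gene start. The rule gave 2515 of 115970 merged regions (2.17%), 3.82% of the 65892 regions shared by all 4 libraries and 20.7% of the 12161 shared promoters. It used no signal value. The other 9646 shared promoters had a CpG island.

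The cells came from 1 Holstein bull calf aged 2 weeks and fed milk replacer only, and were grown as a primary culture. They were either kept with 5 mM butyrate for 24 h or left untreated, with 2 libraries per group. Which pair had butyrate is given in opposite ways. Sample descriptions and the deposited table name 1 pair BT and the other Control, whereas titles and the treatment field of those samples name them the other way round. The groups are therefore called BT-named and Control-named after the names that the values carry. The study calls the libraries of a group biological replicates. Separate cultures are not stated, so p-values measure only the spread between these libraries, which the fits below pool over regions. Under either reading the pairs are the same, and what is contested is which way each difference runs.

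Microbes of the rumen ferment plant fibre to butyrate, which feeds the rumen epithelium and inhibits histone deacetylases, the enzymes that remove acetyl groups from histones. In mammals most promoters of broadly used genes lie in CpG islands, stretches rich in unmethylated CpG dinucleotides that tend to be accessible in every cell type. Promoters without an island more often belong to genes of particular tissues or of regulated responses, such as keratins, cytokines and proteases, and to short RNA genes.

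BT-named libraries had 83391 and 84808 listed peaks, and Control-named libraries 94941 and 98962, of which between 2.59% and 3.08% lay in members. In the marker check that follows, promoter regions with a CpG island counted too, so not all of them are members. The highest peak value over the promoter regions of each gene was used. Of 9 epithelial markers, KRT5, KRT14, KRT8, KRT18, EPCAM and ITGB4 had a promoter region in every library, with a summed highest peak value of 1142 and 1218 in BT-named against 733 and 961 in Control-named libraries. The sum was carried by KRT14, KRT8 and KRT18, and the other 3 had lower means in BT-named libraries. The KRT18 region that is a member went the other way without a call (log2 fold change of average value -0.23). Its average values were 81.4 and 76.0 in BT-named against 92.5 and 92.4 in Control-named libraries. KRT5 had 59 and 72 in BT-named against 90 and 115 in Control-named libraries, EPCAM 29 and 39 in BT-named against 41 and 54 in Control-named, and ITGB4 97 and 145 in BT-named against 111 and 159 in Control-named libraries. CDH1, LAMB3 and TP63 had none within 1000 bp of their start in any library. Of 28 fibroblast and mesenchymal markers, 22 had a promoter region in at least 1 library and 15 in all 4. Their summed values were 3231 and 3309 in BT-named against 3682 and 4391 in Control-named libraries. Among the 15 were VIM, FN1, TWIST2, COL5A1, COL1A2, SPARC and ACTA2, while COL3A1, LUM, PDGFRA and POSTN were among the 6 with none. Of 34 endothelial and immune markers, 5 had one in all 4 libraries (KDR, TIE1, LCP1, CORO1A and SPI1), and PTPRC and PECAM1 had none. Their summed values were 383 and 405 in BT-named against 568 and 713 in Control-named libraries. CD68 and CLDN5 were listed only in the Control-named libraries, and AIF1 only in BT-named replicate 1. Of 28 neuronal and neuroendocrine markers, 22 had one in at least 1 library and 12 in all 4. Their summed values were 2402 and 2400 in BT-named against 1979 and 2355 in Control-named libraries. The part of other cell types in the results below was not tested. The study also gives read totals, which were not used here.

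Members were weaker and narrower than promoters with an island. Their median average value, the mean signal over a peak in the authors' unit, was 81.8 and 81.9 in BT-named and 94.4 and 104 in Control-named libraries. Shared promoters with an island had 135 and 139 in BT-named and 142 and 158 in Control-named libraries. The ratio of the medians, members over promoters with an island, was 0.608 and 0.589 in BT-named against 0.667 and 0.660 in Control-named libraries. The 2 groups did not overlap in this ratio, but 2 libraries against 2 cannot give an exact permutation p (two-sided) below 0.333, which it reached. Against 25129 shared regions in gene bodies without islands the order was the other way, with ratios of 1.36 and 1.35 in BT-named against 1.22 and 1.24 in Control-named libraries (exact permutation p = 0.333, the smallest possible). The median length of a member was 427 and 425 bp in BT-named and 447 and 454 bp in Control-named libraries, while promoters with an island had 631 and 620 bp in BT-named and 699 and 719 bp in Control-named libraries.

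Every member is by rule listed in all 4 libraries, and the regions near a gene start from which members were drawn were listed in all 4 less often where they had no island. Of 4181 regions near a gene start and without an island in any library, 2515 (60.2%) were shared by all 4 libraries, 190 were listed in both BT-named libraries alone and 506 in both Control-named libraries alone. Of 11422 such regions with an island, 84.5% were shared by all 4. A region missing from a list may still carry signal, and promoters lost from 1 group's lists are by rule not members.

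**Figure D1:**
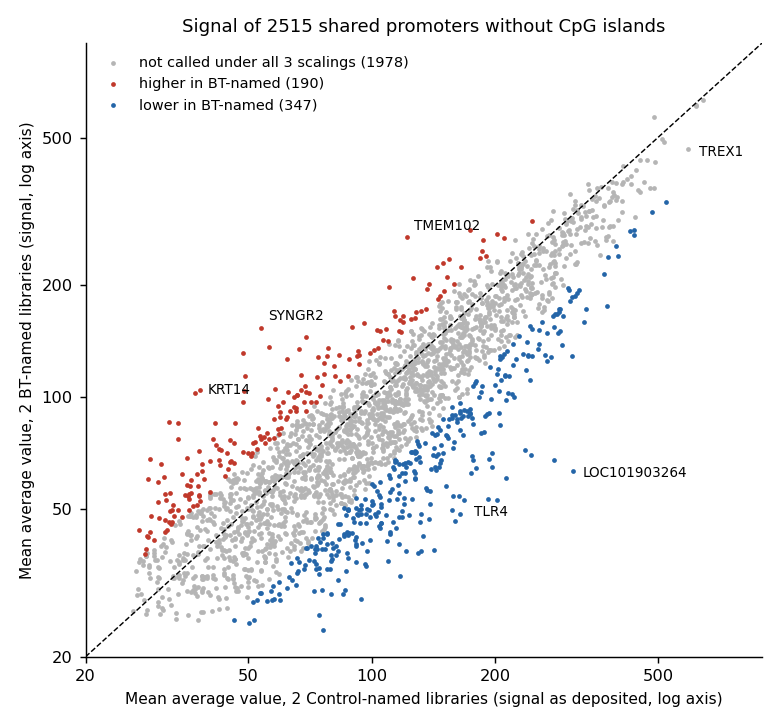
Mean average value of each of the 2515 members in the 2 BT-named libraries (vertical axis) against the 2 Control-named libraries (horizontal axis), both as deposited and on log axes. Each point is 1 region, the dashed line marks equal values, and coloured points were called in the same direction under 3 scalings, 190 above the line and 347 below it.

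The question here was which of these promoters differed in open chromatin between the pairs with and without butyrate. The difference was fitted on log2(average value + 1) with limma across all 65892 shared regions (trended, robust, two-sided), and p-values were adjusted by Benjamini-Hochberg over all of them, with a threshold of 0.05. Taken as deposited, 190 members were called with more signal in BT-named libraries (background over all shared regions, 6.90%) and 859 with less (background 39.4%). After median centring of the libraries these counts were 824 (background 30.2%) and 354 (background 20.4%), and after quantile normalization 654 (background 23.3%) and 402 (background 22.7%). Median centring moved every log2 fold change by 0.36, and the members' median from -0.19 to 0.17. The sources do not say how the deposited signal was scaled between libraries. A region is therefore said to rise or fall, or to be higher or lower, only where all 3 gave a call in 1 direction. For rises the rule added no filter to the as-deposited calls, since all 190 of them passed. For falls it came close to the centred calls, of which 347 of 354 passed. Counts of rises and falls thus rest on different scalings.

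By that rule, 190 members (7.55%) were higher in BT-named libraries and 347 (13.8%) were lower, beside backgrounds of 6.89% and 20.0% over all shared regions. The share of higher members was thus near the background, and that of lower members was below it. Among promoters with an island 335 (3.47%) were higher and 327 (3.39%) lower, and among gene body regions without islands 1482 (5.90%) were higher and 6691 (26.6%) lower. The members' median log2 fold change as deposited was -0.19, against -0.12 for promoters with an island, -0.36 for gene body regions and -0.24 for all shared regions. Fold changes were spread more widely over members (SD 0.47) than over promoters with an island (SD 0.30), and less widely than over all shared regions (SD 0.52) or gene body regions (SD 0.54). These are counts over regions of the same 4 libraries, set side by side without a test. A lower value can stand for fewer cells with an open promoter or for less open chromatin per cell, and these cannot be told apart here.

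Which calls were larger depended on the scaling. As deposited the median log2 fold change was 0.56 for higher members and -0.95 for lower members, and 18 of the 190 and 142 of the 347 differed by at least 1 log2 unit. After median centring the medians were 0.92 and -0.59, with 63 and 41 past 1 log2 unit, and after quantile normalization 0.85 and -0.65, with 44 and 51. The 2 BT-named values lay above both Control-named values in 406 members (16.1%, background 15.9%) and below both in 1296 (51.5%, background 54.4%). Leaving out a BT-named library lowered the count of higher members to 110 without replicate 1 and 102 without replicate 2. The count of lower members stayed between 272 and 298 without any 1 library.

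Among the 12 largest rises were 6 promoters of genes with a symbol. The largest was near SYNGR2, which encodes synaptogyrin 2, a membrane protein of transport vesicles. This region (chr19:54615460-54615981 in the UMD3.1 assembly) had its summit 947 bp before the annotated start and lay 284 bp from a region with a CpG island at the same gene. Its average values were 142 and 166 in BT-named libraries, against 53.8 and 53.6 in Control-named libraries, 2.87 times as high on average (log2 fold change ± SE 1.50 ± 0.17, adjusted p = 3.13e-14). Both BT-named values were far above both Control-named values.

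KRT14, a keratin of the basal layer of stratified epithelia, followed. Its region (chr19:42434262-42434805) had its summit 15 bp inside the gene and average values of 100.5 and 108 in BT-named libraries, against 32.1 and 44.1 in Control-named libraries (log2 fold change 1.45 ± 0.19, adjusted p = 1.43e-11). CAPSL, which encodes a protein similar to the calcium-binding protein calcyphosine, had 135 and 138 in BT-named libraries, against 46.7 and 65.7 in Control-named libraries at chr20:38272105-38272538. The start of CLSTN3, a calsyntenin found at synapses, lay within 1000 bp of that of RBP5, a retinol-binding protein. Their region (chr5:103611198-103611655) had 66.1 and 70.5 in BT-named libraries, against 28.7 and 28.7 in Control-named libraries. The groups did not overlap at any of these promoters.

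TTYH1, a membrane protein of the tweety family, had 83.7 and 71.0 in BT-named libraries, against 29.2 and 37.9 in Control-named libraries. TMEM102, a transmembrane protein, had the strongest promoter of the 12, with 262 and 277 in BT-named libraries, against 115 and 128 in Control-named libraries (log2 fold change 1.14 ± 0.14, adjusted p = 1.2e-12). The other 6 were unnamed loci: LOC100139325, LOC783125, LOC104969438, LOC101904575, LOC101902455 and LOC785907, with log2 fold changes from 1.08 to 1.42. RefSeq lists LOC100139325, LOC783125 and LOC785907 as protein coding.

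The 12 largest falls were mostly at unnamed loci, and 8 of them at LOC names. The largest was near LOC101903264 (chr10:30106469-30107266), with 76.1 and 50.1 in BT-named libraries, against 289 and 333 in Control-named libraries (log2 fold change -2.31 ± 0.15, adjusted p = 5.09e-29). LOC104969722 (chr28:31338505-31339144) had 70.6 and 64.6 in BT-named libraries, against 264 and 294 in Control-named libraries, 4.12 times as high in Control-named on average. LOC104974658 and LOC100847958 are long non-coding RNA genes in RefSeq and LOC100848847 is a pseudogene, and their log2 fold changes were -1.81, -1.80 and -1.76. LOC104973011, LOC104974699 and LOC101908579 had -1.83, -1.75 and -1.74.

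The remaining 4 of these falls were at genes with a symbol. TBC1D15 encodes a protein that switches off the endosomal GTPase Rab7, and its region (chr5:1433689-1434311) had 62.4 and 43.3 in BT-named libraries, against 212 and 193 in Control-named libraries. CFL2, the cofilin of muscle that severs actin filaments, had 36.1 and 41.4 in BT-named libraries, against 141 and 143 in Control-named libraries at chr21:45521340-45521822 (log2 fold change -1.85 ± 0.18, adjusted p = 3.52e-18). Both summits lay inside the gene, 772 and 767 bp from the start, and 235 and 312 bp from a region with a CpG island at the same gene. FBLN5, an elastic fibre protein of connective tissue, had 56.4 and 40.5 in BT-named libraries, against 168 and 160.1 in Control-named libraries at chr21:57246092-57246610. MIR2372, a cattle microRNA gene, had 65.9 and 55.5 in BT-named libraries, against 202 and 224 in Control-named libraries with the summit 814 bp past its start.

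**Figure D2:**
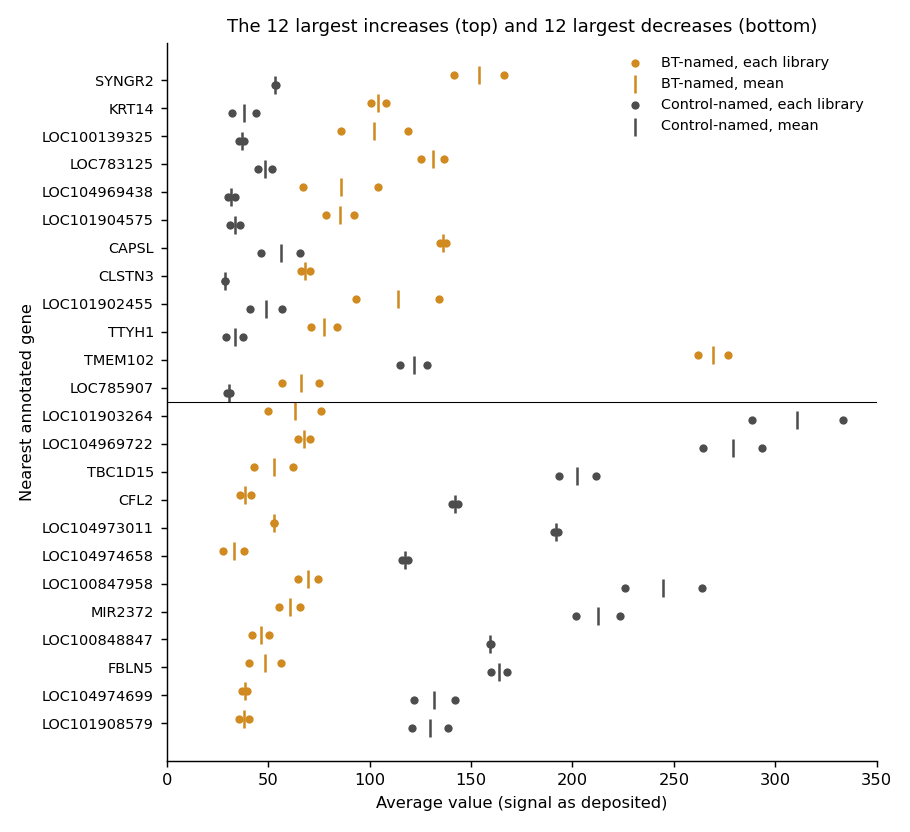
Average value (signal as deposited, horizontal axis) of the 12 members with the largest increase and the 12 with the largest decrease, by nearest gene. Dots are single libraries and bars the mean of 2, BT-named above Control-named in each row, and in all 24 rows the 2 groups are apart.

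The 8 highest by mean peak value, the signal at the summit, were near HDGFRP2 (HDGFL2 in RefSeq), CREB3L2, TOMM40, LOC101909736 with SP1, TREX1, RAB5B, LOC540981 (FBXL19 in RefSeq) and CALCOCO1, and none was called under all 3 scalings. TOMM40, the channel through which proteins enter mitochondria, had average values of 632 and 629 in BT-named libraries, against 632 and 656 in Control-named libraries. The region shared by LOC101909736 and SP1, a transcription factor that binds GC-rich sites, had 628 and 588 in BT-named libraries, against 614 and 627 in Control-named libraries. The groups overlapped at the SP1 region, and at TOMM40 their means differed by less than the spread between the Control-named libraries.

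TREX1, a DNA exonuclease that clears DNA from the cytosol, was the only 1 of the 8 called as deposited, with 474 and 459 in BT-named libraries, against 590.1 and 593 in Control-named libraries (log2 fold change -0.34 ± 0.09, adjusted p = 0.00137). After median centring its log2 fold change was 0.02, and those of the other 7 lay between 0.27 and 0.58. HDGFRP2, CREB3L2, RAB5B and CALCOCO1 had log2 fold changes between -0.09 and -0.02 as deposited, and LOC540981 had 0.22 ± 0.10 (adjusted p = 0.0521). CREB3L2 is a transcription factor of the secretory pathway and RAB5B a GTPase of early endosomes. Among the 200 tallest members, the 3 nearest to no difference as deposited were EIF3F, a subunit of a translation initiation factor, CSTB, a protease inhibitor, and the valine transfer RNA gene TRNAV-CAC. Their log2 fold changes of 0.0024, -0.0036 and 0.0058 all lay within 1 SE of 0 as deposited, and after median centring all 3 were at 0.36 or 0.37. With members ordered by mean average value and cut into 4 equal groups, 68 (10.8%) of the 629 weakest were higher and 59 (9.38%) lower. Of the 629 strongest, 26 (4.13%) were higher and 81 (12.9%) lower, beside backgrounds of 6.89% and 20.0% over all shared regions.

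Peak value gave a similar split, with 182 members called with more signal at the summit in BT-named libraries (background 6.80%) and 866 with less (background 40.2%) as deposited. Of the 190 higher members 160 were called the same way by peak value as deposited, and of the 347 lower members 347 were. By the length of the peak, 20 members were longer in BT-named libraries (background 0.751%) and 106 shorter (background 4.62%). These length calls rested on all 4 libraries, since limma called 0 members longer and 0 shorter when any 1 library was left out, with 110 to 139 longer and 286 to 442 shorter at an unadjusted p below 0.05. Of the 20, the region near LMF2, a factor for the maturation of lipases, was 715 and 719 bp long in BT-named libraries, against 311 and 305 bp in Control-named libraries (log2 length ratio 1.22 ± 0.05, adjusted p = 0.0166). Regions near LOC104971405, LOC104974896 and the transfer RNA genes TRNAT-CGU and TRNAA-AGC had log2 length ratios from 1.06 to 1.31. None of these 5 was called by average value under all 3 scalings. By peak value as deposited limma called LMF2, TRNAT-CGU and TRNAA-AGC with more signal in BT-named libraries. Their log2 fold changes of peak value were 0.73, 0.84 and 0.74 (adjusted p = 0.00153, 0.000925 and 0.00544). LOC104971405 and LOC104974896 had 0.19 and 0.49 without a call.

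Of the 106, the region near CFLAR, an inhibitor of caspase-8 that protects from cell death, was 238 and 268 bp long in BT-named libraries, against 794 and 855 bp in Control-named libraries (log2 length ratio -1.71 ± 0.09, adjusted p = 0.0166). ANGPT1, the vessel growth factor angiopoietin 1, had 283 and 341 bp in BT-named libraries, against 808 and 887 bp in Control-named libraries. The regions of ZC2HC1B, TNFRSF11B, which encodes the decoy receptor osteoprotegerin, and MIR2372 had log2 length ratios from -1.96 to -1.56. ZC2HC1B, MIR2372 and ANGPT1 were also lower by average value. A summed length over all peaks of a library in the region in place of the longest peak left CFLAR, TNFRSF11B and ANGPT1 without a call (adjusted p of 0.0844, 0.207 and 0.13).

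Members varied with their distance from the gene start. The distance is that of the peak's summit, and 1315 summits lay before the start and 1200 at or inside it. Members lay farther out than promoters with an island, with a median distance of 209 bp against 75 bp, and 49.4% of members against 75.4% of promoters with an island lay within 200 bp. Among bins of distance, median average values were highest with the summit 51 to 200 bp before the start. They were 112 and 113 in BT-named and 126 and 135 in Control-named libraries. In that bin 34 of 375 members were higher and 32 lower. Within 50 bp before the start 34 of 299 (11.4%) were higher and 32 (10.7%) lower, beside the same backgrounds of 6.89% and 20.0%.

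At 501 to 1000 bp before the start 29 of 409 members (7.09%) were higher and 72 (17.6%) lower, with a median log2 fold change of -0.27, and at 501 to 1000 bp inside the gene 17 of 404 (4.21%) were higher and 70 (17.3%) lower, with a median of -0.30. These shares of distant members were near or below the backgrounds of 6.89% higher and 20.0% lower over all shared regions. The 144 members beyond 900 bp had a median log2 fold change of -0.26 with 8 higher and 20 lower, and the 177 regions without islands in the next 100 bp beyond the limit had -0.34 with 9 higher and 45 lower. Some of the distant members sit beside an island promoter of the same gene. For 263 members (10.5%) a second shared region with an island lay at the start of the same gene, 3.37% of members within 50 bp of the start and 23.7% of those beyond 500 bp. Of the 263, 7 (2.66%) were higher and 28 (10.6%) lower, and of the other 2252, 183 (8.13%) were higher and 319 (14.2%) lower.

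**Figure D3:**
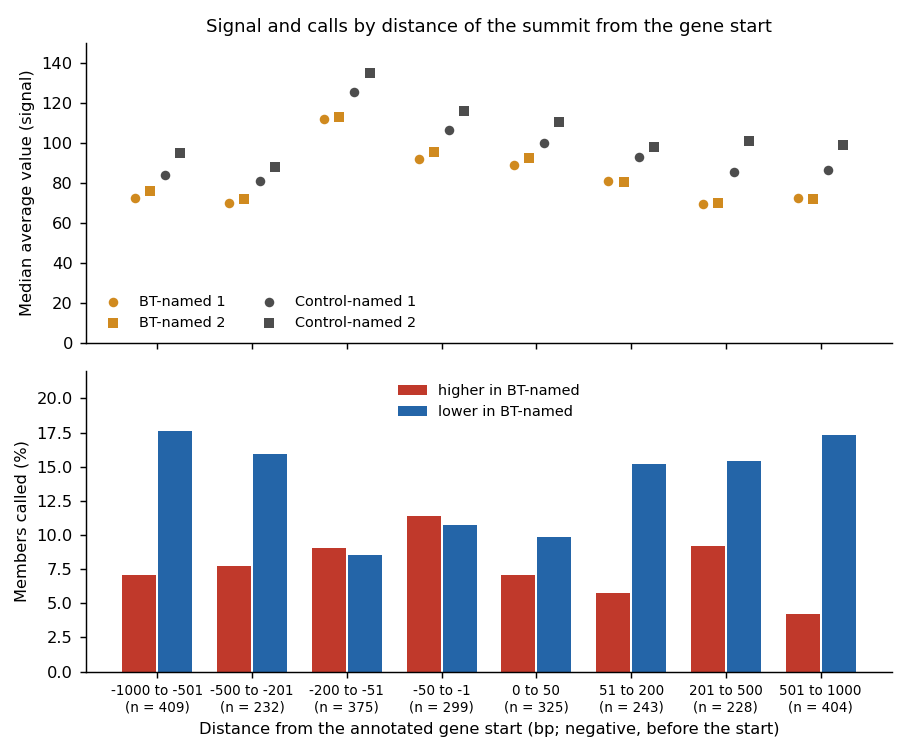
Members by distance of the summit from the annotated gene start in bp (horizontal axis, negative before the start, n regions per bin). The upper panel plots the median average value in each of the 4 libraries and the lower panel the percentage of members called under all 3 scalings, which reaches 11.4% higher within 50 bp before the start and 17.6% lower at 501 to 1000 bp before it.

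Members differed from promoters with an island in the genes they belonged to. Named genes were nearest to 54.5% of members, loci known only by a LOC number to 35.2% (10% of promoters with an island), transfer RNA genes to 8.19% (0.985%) and microRNA genes to 2.07% (0.456%). Of the 886 LOC members 78 (8.8%) were higher and 155 (17.5%) lower, with a median log2 fold change of -0.23. Of the 1371 members at named genes 93 (6.78%) were higher and 173 (12.6%) lower, with a median of -0.20. The 88 LOC members that RefSeq lists as protein coding had 16 (18.2%) higher and 13 (14.8%) lower. The 152 listed as long non-coding RNA had 12 (7.89%) higher and 26 (17.1%) lower. Backgrounds over all shared regions were 6.89% and 20.0%.

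Transfer RNA genes are short, are read by RNA polymerase III and carry their promoter inside the gene. Their 206 members had a median average value of 87.2 and 87.9 in BT-named and 91.3 and 90.6 in Control-named libraries. Of them 17 (8.25%) were higher and 11 (5.34%) lower, beside backgrounds of 6.89% and 20.0%, and the median log2 fold change was -0.05. The called ones ran from -1.32 to 0.77. Of the 206, 82 lay on chromosome 23, the largest share of any chromosome, where 8 were higher and 1 lower. On the other chromosomes 9 of 124 were higher and 10 lower. Of the 206, 46 had their summit more than 400 bp from the transfer RNA gene, among them 6 of the 17 higher and 9 of the 11 lower ones. Copies of these genes are near identical, and the authors kept reads with a unique alignment, so signal at a single copy is uncertain.

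Of 52 members near microRNA genes, 2 (3.85%) were higher and 8 (15.4%) lower, both below the backgrounds of 6.89% and 20.0% over all shared regions. The lower ones were near MIR2284L, MIR2372, MIR365-1, MIR2412, MIR2902, MIR2431, MIR874 and MIR30A, with log2 fold changes from -1.80 to -0.83. MIR30A, of a microRNA family found across vertebrates, had average values of 81.8 and 68.9 in BT-named libraries, against 126 and 144 in Control-named libraries, with the summit 549 bp before its start. MIR2329-1 had 129 and 125 in BT-named libraries, against 91.6 and 84.7 in Control-named libraries, and MIR6526-3 had 49.4 and 50.3 in BT-named libraries, against 31.8 and 35.3 in Control-named libraries. Both of these calls depended on single libraries: MIR2329-1 had an adjusted p of 0.0691 without BT-named replicate 1, and MIR6526-3 had 0.069 without Control-named replicate 1 and 0.0608 and 0.0774 without BT-named replicate 1 and 2.

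Solute carriers move nutrients and ions across membranes, which is a main task of the rumen wall. Of 26 members at SLC genes limma called 0 higher (1 positive at an unadjusted p below 0.05 as deposited) and 6 (23.1%) lower. The backgrounds over all shared regions were 6.89% and 20.0%, and the median log2 fold change of the 26 was -0.24. SLC38A2, a carrier of neutral amino acids, had 66.9 and 66.0 in BT-named libraries, against 138 and 156 in Control-named libraries (log2 fold change -1.13 ± 0.17, adjusted p = 1.92e-09). SLC23A1, a vitamin C transporter, had 111 and 104 in BT-named libraries, against 195 and 206 in Control-named libraries, and SLC29A1, a nucleoside transporter, had 90.3 and 87.1 in BT-named libraries, against 151 and 183 in Control-named libraries. SLC25A45, a mitochondrial carrier, SLC5A9, a sugar cotransporter, and SLC9B2, a sodium and proton exchanger, had log2 fold changes of -0.99, -0.67 and -0.82. At all 6 both BT-named values lay below both Control-named values.

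Zinc finger genes of the ZNF names encode DNA-binding proteins. Of their 23 members 4 (17.4%) were higher, near ZNF175, ZNF266, ZNF483 and ZNF484 (log2 fold changes 0.41, 0.64, 0.51 and 0.45). Another 3 (13%) were lower, near ZNF227, ZNF462 and ZNF532 (-0.90, -1.01 and -0.81). The backgrounds over all shared regions were 6.89% and 20.0%. The 4 higher calls each failed without at least 1 library. Without BT-named replicate 2 the adjusted p was 0.106 for ZNF175, 0.0515 for ZNF266, 0.166 for ZNF483 and 0.292 for ZNF484. Without Control-named replicate 1 it was 0.101 for ZNF266 and 0.106 for ZNF483, and without BT-named replicate 1 it was 0.0605 for ZNF175. Of 5 members at olfactory receptor genes 1 was lower, near OR2A5, with 72.8 and 71.7 in BT-named libraries, against 220.1 and 255 in Control-named libraries.

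A total of 10 lists of genes that fit rumen epithelium, its possible other cells and butyrate were then followed. Each is given by counts and a median with no test of the list. Beside these counts, 7.55% of all members were higher and 13.8% lower, and 6.89% and 20.0% of all shared regions. As deposited the list medians lay between -0.48 and 0.44, and after median centring between -0.12 and 0.80. The list of stratified and simple epithelial genes had 68 genes, 12 of them with members, in 15 regions. Of the 15, 2 (13.3%) were higher, KRT14 and 1 region of ELF3. Another 5 (33.3%) were lower, among them regions of DSC1, ELF3, KRT15 and SERPINB5. The list median was -0.30 beside -0.19 for all members. KRT15, a further basal keratin, had 96.8 and 90.9 in BT-named libraries, against 166 and 149 in Control-named libraries (log2 fold change -0.74 ± 0.16, adjusted p = 2.87e-05). The KRT14 and KRT15 promoters thus moved in opposite directions. DSC1, a desmosomal cadherin of upper layers, had 31.9 and 30.5 in BT-named libraries, against 59.7 and 70.9 in Control-named libraries.

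Keratins KRT80, KRT6A and KRT8 were not called under all 3 scalings. KRT6A, a keratin of wound-healing epithelium, had 216 and 217 in BT-named libraries, against 203 and 208 in Control-named libraries, and KRT8, a keratin of simple epithelia, had 202 and 202 in BT-named libraries, against 132 and 227 in Control-named libraries. The average values of KRT8 in the 2 Control-named libraries differed more from each other than the group means did. By peak value KRT8 had 444 and 438 in BT-named libraries, against 266 and 363 in Control-named libraries. The log2 fold change of peak value as deposited was 0.50 (adjusted p = 0.000833 by limma). The stronger KRT80 region had -0.48 ± 0.13 (log2 fold change) as deposited and -0.12 after median centring.

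ELF3, an ETS transcription factor of epithelia, was the only 1 of 105 gene names with several members whose regions were called in opposite directions, and it was chosen after its values were seen. The region before the start (chr16:70825048-70825491, summit 467 bp upstream) had 82.3 and 80.5 in BT-named libraries, against 142 and 152 in Control-named libraries (log2 fold change -0.84 ± 0.16, adjusted p = 3.41e-06). The region at the start (chr16:70825693-70826171, summit 109 bp inside) had 143 and 153 in BT-named libraries, against 125 and 152 in Control-named libraries, with no call. The region farther inside (chr16:70826346-70827118, summit 717 bp inside) had 104 and 96.6 in BT-named libraries, against 71.5 and 78.4 in Control-named libraries (log2 fold change 0.42 ± 0.17, adjusted p = 0.0351). The rise lost its call without Control-named replicate 1 (adjusted p = 0.126) and without either BT-named library (0.226 and 0.0999), while the fall kept its call without any 1 library.

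S100 proteins bind calcium, annexins bind membranes and serpins inhibit proteases, and all 3 families are active in keratinizing epithelia. Their list had 17 members with 1 (5.88%) higher and 4 (23.5%) lower and a median of -0.37. S100A14 and S100A16 are neighbours on chromosome 3. S100A16 (chr3:16830251-16830724) had 91.0 and 105 in BT-named libraries, against 201 and 224 in Control-named libraries (log2 fold change -1.11 ± 0.15, adjusted p = 9.77e-11), and S100A14 (chr3:16826952-16827461) had 180.4 and 206 in BT-named libraries, against 134 and 167 in Control-named libraries (log2 fold change 0.36 ± 0.14, adjusted p = 0.0282). S100A14 lost its call without Control-named replicate 1 (adjusted p = 0.223) and without BT-named replicate 1 or 2 (0.0623 and 0.329).

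A cluster of serpin genes on chromosome 24 held 3 lower members. SERPINB10 had 49.8 and 44.0 in BT-named libraries, against 143 and 134 in Control-named libraries (log2 fold change -1.54 ± 0.17, adjusted p = 2.69e-14). SERPINB13, with its summit 705 bp before the start, had -1.03, and SERPINB5, known as maspin, had -0.82. The SERPINB5 summit lay 837 bp before the start, and its region 298 bp from one with a CpG island at the same gene. S100A2 and ANXA8L1 had no call under all 3 scalings. The stronger of 2 S100A2 regions had 339 and 374 in BT-named libraries, against 429.8 and 474 in Control-named libraries, and ANXA8L1 had 232 and 308 in BT-named libraries, against 299 and 446 in Control-named libraries.

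Cytokines, chemokines and their receptors had 14 members, with 1 (7.14%) higher, 4 (28.6%) lower and a median of -0.24. CXCL8, the chemokine that draws neutrophils, had 65.2 and 78.1 in BT-named libraries, against 39.4 and 36.3 in Control-named libraries (log2 fold change 0.90 ± 0.19, adjusted p = 3.55e-05). CXCL9, a chemokine that interferon gamma induces, had 52.7 and 68.7 in BT-named libraries, against 141 and 115 in Control-named libraries (log2 fold change -1.07 ± 0.17, adjusted p = 3.58e-08). These 2 chemokine promoters on chromosome 6 moved in opposite directions.

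TNFSF10, the death ligand TRAIL, had 62.0 and 65.2 in BT-named libraries, against 137 and 151 in Control-named libraries, and CX3CL1, a membrane-bound chemokine, had 40.2 and 59.2 in BT-named libraries, against 86.9 and 99.5 in Control-named libraries. IL24, a cytokine of the IL-10 family, had the strongest region of the list, with its summit 802 bp inside the gene. Its average values were 369 and 301 in BT-named libraries, against 499.9 and 549 in Control-named libraries. IL1RN, which blocks interleukin 1, TNFRSF1A, a receptor of tumour necrosis factor, and IL18 had no call under all 3, with log2 fold changes of -0.59, -0.32 and 0.09 as deposited. At IL18 the longest peak spanned 441 and 425 bp in BT-named libraries, against 851 and 786 bp in Control-named libraries (adjusted p = 0.0197 for length).

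Innate immune receptors and interferon response genes had 13 members. Of these 0 were higher by limma (0 also at an unadjusted p below 0.05) and 4 (30.8%) lower, with a median of -0.30. TLR4, the receptor of bacterial lipopolysaccharide, had the largest fall (chr8:108828846-108829824), with 56.2 and 49.6 in BT-named libraries, against 159.7 and 177 in Control-named libraries (log2 fold change -1.65 ± 0.17, adjusted p = 9.75e-17). TLR3, the receptor of double-stranded RNA, had 37.8 and 40.0 in BT-named libraries, against 72.6 and 78.2 in Control-named libraries. IFI35, an interferon-induced protein, and PLAC8 (PLAC8B in RefSeq) had log2 fold changes of -0.76 and -0.75, with the PLAC8 summit 891 bp before the start. Interferon response genes ISG15, ISG20 and IRF9 had no call under all 3, with -0.12, -0.41 and -0.08.

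Matrix proteases and their inhibitors had 12 members, with 2 (16.7%) higher, 3 (25%) lower and a median of -0.48. MMP7, a protease made by epithelial cells, had 48.8 and 54.5 in BT-named libraries, against 146 and 132 in Control-named libraries (log2 fold change -1.41 ± 0.17, adjusted p = 1.18e-12). TFPI, the inhibitor of tissue factor in blood clotting, had 2 neighbouring members, and both fell. The first had 38.0 and 54.0 in BT-named libraries, against 80.5 and 100.4 in Control-named libraries, and the second, whose nearest name is LOC104971111, had 42.5 and 34.8 in BT-named libraries, against 108 and 135 in Control-named libraries. PLAT, the tissue plasminogen activator, had 238 and 235 in BT-named libraries, against 176 and 192 in Control-named libraries, and LOXL4, a lysyl oxidase, had 50.5 and 60.4 in BT-named libraries, against 36.6 and 43.8 in Control-named libraries. The PLAT call was lost without BT-named replicate 1 or 2 (adjusted p of 0.148 and 0.125), and the LOXL4 call without the same libraries (0.0648 and 0.345) and without Control-named replicate 1 (0.235). PLAU and TIMP1, a further plasminogen activator and a protease inhibitor, had log2 fold changes of -0.37 and -0.54 with no call under all 3.

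**Figure D4:**
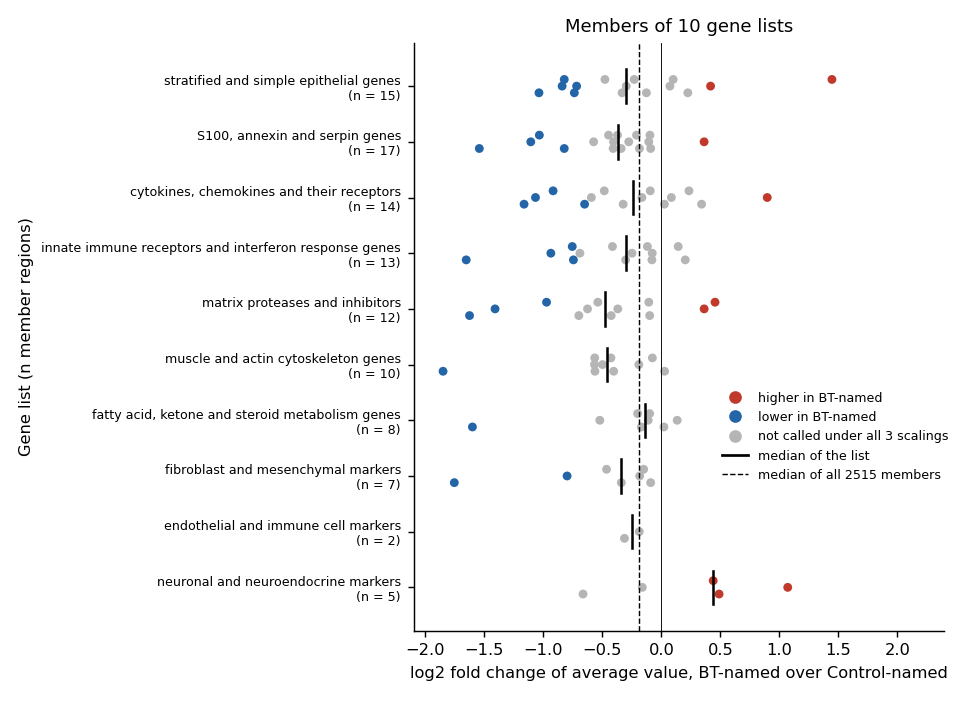
Log2 fold change of average value as deposited, BT-named over Control-named (horizontal axis), for the members of 10 gene lists (rows, n regions). Points are single regions coloured by the call under all 3 scalings, black bars are list medians and the dashed line is the median of all members at -0.19; 3 of 5 neuronal and neuroendocrine members lie on the higher side and were called.

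Muscle and actin cytoskeleton genes had 10 members, of which CFL2 fell and 0 rose by limma (0 also at an unadjusted p below 0.05), with a median of -0.46. ANKRD1, a stress protein of muscle, had 402 and 436 in BT-named libraries, against 402 and 419 in Control-named libraries, without a call. The region at the start of MYL6, a myosin light chain, had a log2 fold change of -0.19, also without a call. A second MYL6 region, with its summit 961 bp inside the gene, had 182 and 188 in BT-named libraries, against 251 and 299 in Control-named libraries. Its log2 fold change was -0.56, and limma called it as deposited (adjusted p = 0.000101) but not under all 3 scalings. Genes of fatty acid, ketone and steroid metabolism had 8 members, of which PLA2G5, a secreted phospholipase, fell and 0 rose by the same measure (0 unadjusted). Its average values were 23.4 and 23.9 in BT-named libraries, against 93.5 and 58.2 in Control-named libraries, with the summit 759 bp inside the gene. BDH2, an enzyme of ketone body use, ALDH1A1, which makes retinoic acid, and CYP3A4 (CYP3A28 in RefSeq) had log2 fold changes of -0.20, -0.11 and 0.13, again without a call.

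Fibroblast and mesenchymal markers had 7 members, with 0 higher by limma (0 unadjusted), 2 (28.6%) lower and a median of -0.34. Their summed average value was 763 and 798 in BT-named libraries, against 1028 and 1141 in Control-named libraries. FBLN5 fell, as given above, and so did the farther of 2 regions of TNC, a matrix protein of wounds, with 118 and 95.4 in BT-named libraries, against 171 and 202 in Control-named libraries. The TNC region at the start had 144 and 159 in BT-named libraries, against 199 and 219 in Control-named libraries, without a call under all 3. SPARC and S100A4 had log2 fold changes of -0.18 and -0.09. Endothelial and immune markers had 2 members, TIE1 and LCP1, with 0 called by limma (0 unadjusted) and summed values of 123 and 146 in BT-named libraries, against 142 and 177 in Control-named libraries.

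Neuronal and neuroendocrine markers had 5 members, of which 3 rose and 0 fell by limma (1 negative at an unadjusted p below 0.05), and their median of 0.44 was the only list median above 0 as deposited among the 10. After median centring it was 0.80, and 6 other list medians were also above 0. Their summed average value was 647 and 587 in BT-named libraries, against 459 and 514 in Control-named libraries. SNAP25, a SNARE protein of vesicle fusion, had 97.0 and 110.2 in BT-named libraries, against 45.1 and 52.5 in Control-named libraries (log2 fold change 1.07 ± 0.18, adjusted p = 1.18e-07). STMN4, a stathmin that destabilizes microtubules, had 288 and 261 in BT-named libraries, against 193 and 212 in Control-named libraries, and SYT1, the calcium sensor of transmitter release, had 130.2 and 86.0 in BT-named libraries, against 67.2 and 83.9 in Control-named libraries. SNAP25 kept its call without any 1 library. STMN4 lost it without BT-named replicate 1 (adjusted p = 0.118), and SYT1 without Control-named replicate 1 or BT-named replicate 1 (0.141 and 0.569). SCG2 and SST, a granin and the hormone somatostatin, had -0.16 and -0.66 without a call under all 3.

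Genes whose RNA the study found raised or lowered after butyrate in the same kind of cells were followed as well, by name alone. The lists come from RNA-seq libraries of the study and not from the ATAC-seq libraries described here. Of 934 raised genes 109 had members, in 115 regions. Of the 115, 23 (20%) were higher and 13 (11.3%) lower in BT-named libraries, with a median log2 fold change of -0.06. Over all members these shares were 7.55% and 13.8%, and over all shared regions 6.89% and 20.0%. Among the 23 were KRT14, CAPSL, TTYH1 and TMEM102, and among the 13 were KRT15, SLC5A9 and the upstream region of ELF3. The largest falls of the 13 were at KCNAB1 and ATG9B, with log2 fold changes of -1.18 and -1.09. Of 332 lowered genes 24 had members, in 25 regions. Among the 25 limma called 0 higher (0 also at an unadjusted p below 0.05) and 4 (16%) lower, with a median of -0.33. The 4 were GPR65, a receptor that senses protons, EVI2A, a membrane protein, ESM1, a proteoglycan of vessels, and CXCL9. GPR65 had 62.3 and 66.7 in BT-named libraries, against 173 and 187 in Control-named libraries (log2 fold change -1.47 ± 0.16, adjusted p = 1.13e-14), and EVI2A and ESM1 had log2 fold changes of -1.06 and -0.87. Among promoters with an island, the raised genes had 341 regions with 55 higher and 2 lower. The lowered genes had 252 such regions with 3 higher and 10 lower. Over all shared promoters with an island 3.47% were higher and 3.39% lower.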

How the data were processed

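ATAC-seq of 4 libraries from rumen epithelial primary cells of 1 calf, 2 per group, was analysed. Per the labels and the study's methods, the authors aligned 42-nt paired reads to UMD3.1 (bosTau8) with BWA, kept unique alignments and called peaks per library with MACS2 against input, and the submitters' processing notes list Trim Galore 0.4.1. The deposited table gives, per library and peak, a peak value (signal at the summit) and an average value (mean signal across the peak), with length, CpG island count and gene distances, which are whole numbers or bp made by the authors. The scaling of the signal across libraries was not found in the labels or methods. The study gives read totals per library, which were not used here. Average value times the number of bins, of 32 bp each, lay within 0.05 of a whole number in 100% of peaks. What the signal counts was not found in the labels or methods. The depth behind each value is therefore unknown, and no counting interval is given.

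Peaks overlapping by 1 bp or more were merged, and the highest average and peak value and the longest peak of each library were kept. Starts are printed 1-based. limma 3.58.1 in R 4.3.3 was fitted on log2(value + 1) over all 65892 shared regions, so fold changes are on that scale and understate those of low values. The script was tested on simulated data. Of 2414 gene names of members, 1737 (72%) were matched to RefSeq symbols (another assembly, used for names and biotypes only). Distances run from the summit to the annotated start: between 2 libraries, 98.3% of 40958 of them shifted exactly with the summit.

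The members and lists were chosen with earlier results of these data known. Named were the 12 largest rises and falls called under all 3 scalings, the 8 tallest members, the 5 longest and 5 shortest by length ratio, the called members of each list with up to 3 uncalled ones of highest average value, and the 3 nearest to no difference among the 200 tallest. Called members with SLC, ZNF, olfactory receptor or microRNA names, those of the genes with lowered RNA, and ELF3 were added after the values were seen. So were the few named for the genes with raised RNA. Alternatives changed scaling, measure, pseudocount (10), variance model, low values (mean peak value of at least 50), distance limit, overlap, several peaks per region, single libraries and a replicate block. The check without transfer RNA genes, without genes that also have an island promoter, and within 200 bp were chosen after seeing the data. Promoter sequences were not analysed here. Some named members of the lists are not reported here, while the counts and medians cover whole lists.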

Additional observations from a re-analysis of the deposited data

How the results depend on the processing

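The number of members called in each direction depended on how the libraries were scaled, and the cause was not tested. In this section, higher and lower marked as deposited or by peak value stand for calls under that setting alone. As deposited 190 members were called with more signal in BT-named libraries and 859 with less, with median centring 824 and 354, and with quantile normalization 654 and 402. The median log2 fold change of members was -0.19 as deposited, 0.17 with centring, 0.11 with quantile normalization and -0.28 with the area of the peak. By peak value 182 had more and 866 less, with centring 847 and 376, and with quantile normalization 707 and 424. Leaving out each library gave 102 to 216 higher as deposited and also under all 3 scalings, 604 to 951 lower as deposited, 272 to 298 lower under all 3, a median of -0.26 to -0.13, and 105 to 218 higher and 634 to 966 lower by peak value. With a limit of 500 bp 515 were lower as deposited and 205 under all 3. Within 200 bp of a start, which left 1242 members, 105 were higher as deposited and under all 3, 348 lower as deposited and 133 under all 3.

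The replicate numbers did not pair the libraries: deviations of same-numbered libraries from their group means correlated at 0.029 over all shared regions and 0.0018 over members, across regions. With the replicate block limma called 199 higher and 371 lower under all 3 scalings, 199 higher and 883 lower as deposited, and 193 higher and 882 lower by peak value. By length, limma called 0 longer and 0 shorter with the replicate block (132 and 398 at an unadjusted p below 0.05) and 0 of each without any 1 library.

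Of 1559 alternative values for 126 named results, 1346 kept direction and side of the threshold, 122 lost a call, 28 gained one and 63 changed sign, all of these at members not called under all 3 scalings. Their log2 fold changes with median centring were HDGFRP2 0.35, CREB3L2 0.33, TOMM40 0.33, LOC101909736 0.33, TREX1 0.019, RAB5B 0.27, CALCOCO1 0.31, S100A2 0.0203, TNFRSF1A 0.0373, IRF9 0.28, ISG15 0.24, MYL6 0.17, ALDH1A1 0.25, BDH2 0.16, S100A4 0.27, SPARC 0.18, TIE1 0.17, LCP1 0.0487, SCG2 0.20 and CSTB 0.36. With quantile normalization they were HDGFRP2 0.0324, CREB3L2 0.10, TOMM40 0.0195, LOC101909736 0.0133, RAB5B 0.0144, CALCOCO1 0.095, IRF9 0.22, ISG15 0.24, MYL6 0.0507, ALDH1A1 0.26, BDH2 0.18, S100A4 0.18, SPARC 0.18, TIE1 0.19, SCG2 0.22 and CSTB 0.22. By peak value they were IL18 -0.16, ANKRD1 -0.0758, EIF3F -0.0595, TRNAV-CAC -0.11 and ELF3 -0.016, and by area IL18 -0.83 and TRNAV-CAC -0.13. Leaving out each library gave ranges that crossed 0 for HDGFRP2 -0.12 to 0.0899, CREB3L2 -0.20 to 0.13, LOC101909736 -0.0779 to 0.0168, CALCOCO1 -0.22 to 0.11, KRT8 -0.17 to 0.61, ISG15 -0.32 to 0.0868, ANKRD1 -0.0316 to 0.0867, CYP3A4 -0.0106 to 0.28, S100A4 -0.19 to 0.0112, TIE1 -0.41 to 0.0372, EIF3F -0.0372 to 0.042, CSTB -0.11 to 0.10, TRNAV-CAC -0.0967 to 0.11 and ELF3 -0.0379 to 0.24. The ELF3 values are those of the region with its summit 109 bp inside the gene, and the MYL6 values those of the region at its start. The planned motif comparison of promoter sequences was not run. What the deposited signal counts is not stated, so no limit from counting is given, and 2 libraries per group bound the precision.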

Other observations

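Members were unevenly spread over chromosomes. On chromosome 23 members made up 8.81% of shared regions, against 3.82% over the genome, and 82 of its 170 members were at transfer RNA genes. On chromosome 18, 19 of 122 members were higher and 11 lower, beside 9.45% higher and 13.4% lower over all its shared regions. On chromosome 22, 2 of 72 were higher and 19 lower, beside 6.12% and 20.9% over all its shared regions. These counts were picked after all chromosomes had been seen, and no test was made of them.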
